A study of Mus musculus with 12 samples.

Results

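The 10 genes described here encode adhesion molecules by which blood vessels let leukocytes leave the circulation: Vcam1, Icam1, Icam2, Sele, Selp, Jam2, Pecam1, F11r, Madcam1 and Alcam. They were listed by symbol for their role, with earlier results of these data known, and all 10 were found with GENCODE M21 among the 52636 genes of the count table. RNA of liver and of tumor was sequenced from female FVB/NJ mice, a wild-type strain with its own immune system, that carried Fo5 tumors. Fo5 is a transplanted mammary tumor from founder #5 of an MMTV-HER2 transgenic mouse, in which the MMTV promoter drives HER2 in mammary epithelium, and pieces of it had been placed in the mammary fat pad. At average tumor volumes of about 350 to 500 mm3, each mouse received 1 intravenous injection, either of buffer (vehicle) or of an anti-HER2/CD3 TDB at 5 mg/kg. A TDB, or T cell dependent bispecific antibody, here binds HER2 on tumor cells with 1 arm and CD3 on T cells with the other. Tissues were taken after 24 h. Liver and tumor of each treatment make 4 groups of 3 libraries, from 3 mice per treatment by the design text. All groups thus come from tumor-bearing mice, no group lacks a tumor, and no label ties a liver library to the tumor library of the same mouse.

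Leukocytes leave the blood in steps. Selectins slow them on the vessel wall, immunoglobulin family molecules such as ICAM-1 and VCAM-1 then hold them by binding leukocyte integrins, and molecules of the endothelial junctions guide them between the cells. Resting endothelium carries ICAM-2 and PECAM-1 at a steady level, whereas E-selectin, P-selectin, VCAM-1 and ICAM-1 are known to be induced by inflammatory cytokines. Several of these genes are also used outside the endothelium: VCAM-1 by macrophages and stroma, ICAM-1 by leukocytes and many epithelia, P-selectin by platelets, and F11r (JAM-A) and Alcam by epithelial cells.

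Libraries held 18460159 to 25542980 counts in liver and 20796764 to 29396324 in tumor. Levels are given as CPM, the usual library-size-scaled counts, after TMM scaling over the 12 libraries. The tissues matched their labels: 9 hepatocyte markers summed to 181769 to 316106 CPM in liver libraries and to 5.06 to 36.3 CPM in tumor libraries, and 10 mammary epithelium markers to 442 to 954 CPM and 17383 to 20060 CPM. All 15 pan-endothelial markers had counts in each of the 4 groups. The third liver TDB library stood apart: across 13649 genes, its deviation from the group mean rose with exon length (Spearman rho 0.63 across genes, which are not independent replicates), where the other 11 libraries ranged from -0.59 to 0.46. Its mitochondrial share was 2.05%, against 0.61% to 1.28% in the others.

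In tumor, 3 adhesion genes rose 24 h after the antibody and 1 fell. RNA of Selp, which encodes P-selectin, went from near the detection limit to a mean of 1.18 CPM. That of Icam1 rose 14-fold, that of Vcam1 rose 2.90-fold, and that of Jam2, which encodes JAM-B, fell to 0.51 of its vehicle level. Icam2, Pecam1, F11r and Alcam did not pass the test. Sele and Madcam1 had too few counts to be tested. Tested by edgeR's quasi-likelihood method, with Benjamini-Hochberg adjustment over 15454 genes, the tumor comparison called 28.8% of genes at an adjusted p under 0.05, 15.8% higher and 13.1% lower. Of the 10 genes, 8 were tested. The median log2 fold change of those 8 was 0.26, beside -0.02 over all genes tested. In these tissue extracts, fewer cells of a type and less RNA per cell cannot be told apart.

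**Figure D1:**
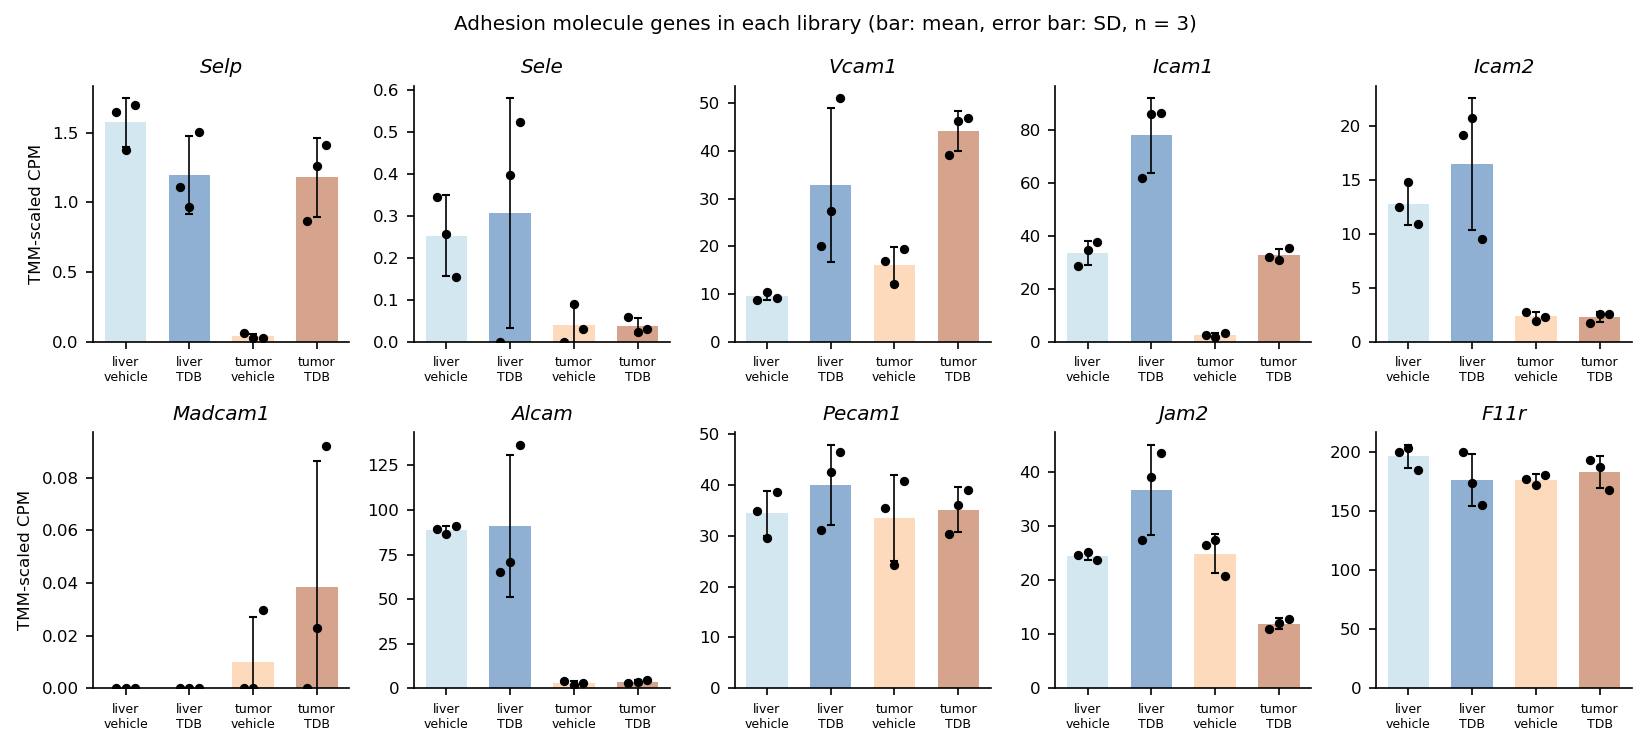
TMM-scaled CPM of each of the 10 adhesion genes (1 panel per gene, vertical axis with its own linear scale) in the 4 groups: points are libraries, bars are means and error bars are SD of 3 libraries. In tumor the TDB libraries of Selp, Vcam1 and Icam1 lie above all vehicle libraries and those of Jam2 below them, and in liver the same holds upward for Vcam1, Icam1 and Jam2.

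Selp encodes P-selectin, which binds PSGL-1 on rolling leukocytes. In tumor it stood at 0.0614, 0.0303 and 0.0296 CPM in the 3 vehicle libraries and at 0.864, 1.26 and 1.41 CPM in the 3 TDB libraries. The groups lie far apart, but the vehicle level rests on 4 counts in all, against 130 with TDB. The ratio of the summed counts per scaled library was 29.4 with an exact 95% interval of 11.2 to 109.5, which covers counting error only. The fitted log2 fold change was 4.83 (SE 0.45, edgeR adjusted p = 8.8e-05). Because Selp passed the filter on low counts through its TDB libraries alone, it could hardly have been tested without being higher there. Platelets are another known source of P-selectin. The 8 platelet and megakaryocyte markers summed to 12.05 to 13.0 CPM in vehicle and 6.88 to 9.49 CPM in TDB tumors, and none was at 0 in either group. Of the 2 that were tested, Itga2b was lower and Pf4 was not called. The part of platelets in the rise of Selp was not tested.

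Sele encodes E-selectin, which is made by activated endothelium. It had 4 counts over the vehicle tumors (0, 3 and 1) and 4 over the TDB tumors (2, 1 and 1), a ratio of 0.904 (exact 95% interval 0.168 to 4.85). A change within that interval was not detectable at this depth, so the rise of Selp was not matched by one of Sele that could be measured.

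Icam1 encodes the ligand of the leukocyte integrins LFA-1 and Mac-1. Vehicle tumors held 2.49, 1.73 and 3.20 CPM and TDB tumors 31.9, 30.7 and 35.4 CPM. The TDB libraries lie close together and all far above the highest vehicle library. The log2 fold change was 3.81 (SE 0.19, edgeR adjusted p = 4.0e-06).

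Vcam1 encodes the ligand of the integrin VLA-4. Its vehicle tumors held 16.8, 12.02 and 19.5 CPM and its TDB tumors 39.2, 46.3 and 46.8 CPM. The groups do not overlap, and the log2 fold change was 1.54 (SE 0.17, edgeR adjusted p = 0.00053). Icam2, a constitutive ligand of LFA-1, held 2.80, 1.94 and 2.34 CPM in vehicle and 1.73, 2.59 and 2.55 CPM in TDB tumors. These groups overlap throughout, with a log2 difference of 0.04 (95% interval -0.47 to 0.56), so that a change as large as that of Icam1 or Vcam1 lies outside its interval.

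Alcam encodes the ligand of CD6 on T cells. It held 4.36, 1.97 and 2.87 CPM in vehicle and 3.07, 3.34 and 4.70 CPM in TDB tumors, with a log2 difference of 0.35 (95% interval -0.33 to 1.03). Madcam1, the gut-type ligand of the integrin alpha4 beta7, had 1 count over the vehicle tumors (0, 0 and 1) and 4 over the TDB tumors (0, 1 and 3), a ratio of 3.62 with an exact 95% interval of 0.358 to 178. No direction can be read from either gene.

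Jam2 encodes JAM-B, a junction molecule of endothelium. It held 26.4, 27.3 and 20.7 CPM in vehicle and 10.9, 12.04 and 12.9 CPM in TDB tumors, and every TDB library lies below every vehicle library, as for 31.9% of all genes tested. Upward separation was seen for 17.7% of genes and for Selp, Vcam1 and Icam1. Separation is read on CPM scaled over the 12 libraries, whereas the tumor fit scales its own 6 libraries. These scales differ: the mean of Icam2 went from 2.36 to 2.29 CPM, beside a fitted log2 difference of 0.04. The shares that separate thus belong to the CPM scale and not to that of the fit. The log2 fold change of Jam2 was -0.97 (SE 0.12, edgeR adjusted p = 0.00049). The pan-endothelial markers summed to 169 to 232 CPM in vehicle and to 122 to 190 CPM in TDB tumors, ranges that overlap. Of 15 tested none rose and 3 fell (Esam, Emcn and Kdr), beside 15.8% higher and 13.1% lower over all genes. No marker of that list was at 0, and its part in the fall of Jam2 was not tested.

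Pecam1 encodes the junction molecule CD31, which leukocytes engage while crossing. Vehicle tumors held 35.4, 24.2 and 40.7 CPM and TDB tumors 30.3, 36.1 and 39.1 CPM, a log2 difference of 0.16 (95% interval -0.31 to 0.62). F11r encodes JAM-A, found at both endothelial and epithelial tight junctions. It held 177, 172 and 181 CPM in vehicle and 193, 188 and 168 CPM in TDB tumors, a log2 difference of 0.13 (95% interval -0.04 to 0.30). The groups of both genes overlap, and both intervals are narrow beside the changes of Selp and Icam1.

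Markers of leukocytes moved with Vcam1 and Icam1 in tumor. The T cell list of 12 markers summed to 3.82 to 5.96 CPM in vehicle, where Cd3e was at 0, and to 12.1 to 20.2 CPM in TDB tumors, and 9 of 11 tested rose. The 9 monocyte and macrophage markers summed to 174 to 247 CPM and 251 to 328 CPM, with 4 higher and 1 lower of 9 tested and none at 0. The 8 neutrophil markers summed to 3.25 to 8.08 CPM and 25.5 to 48.8 CPM, with 3 of 5 tested higher and Ngp at 0 in both groups. The 12 fibroblast and pericyte markers summed to 529 to 1491 CPM and 448 to 1008 CPM, with Rgs5 lower, none higher of 11 tested and none at 0. Over all genes tested in tumor, 15.8% were called higher and 13.1% lower. The part of these cells in the rise of Vcam1 and Icam1 was not tested.

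The sequence just before the start of these genes is shown for the members with the clearest contrast in tumor: Icam1 and Selp, which rose, and Sele and Madcam1, which stayed at a few counts. The RefSeq promoter table (GRCm38.p6) held 6 of the 10 genes. Each stretch is written 5′ to 3′ on the gene's own strand and ends at the base before the RefSeq start, with motif matches in capitals. Icam1 is at chr9:21015690-21015939, Selp at chr1:164115014-164115263, Sele at chr1:164047984-164048233 and Madcam1 at chr10:79664459-79664558, all on the plus strand.
Icam1: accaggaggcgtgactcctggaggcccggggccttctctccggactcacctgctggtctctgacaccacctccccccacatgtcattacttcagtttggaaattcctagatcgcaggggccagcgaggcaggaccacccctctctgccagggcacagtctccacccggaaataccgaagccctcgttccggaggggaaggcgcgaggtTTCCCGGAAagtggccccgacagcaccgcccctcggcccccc
Selp: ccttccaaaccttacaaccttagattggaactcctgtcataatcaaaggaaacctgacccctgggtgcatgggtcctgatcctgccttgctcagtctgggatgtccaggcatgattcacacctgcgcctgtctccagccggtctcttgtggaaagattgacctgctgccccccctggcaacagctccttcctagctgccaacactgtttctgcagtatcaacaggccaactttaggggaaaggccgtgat
Sele: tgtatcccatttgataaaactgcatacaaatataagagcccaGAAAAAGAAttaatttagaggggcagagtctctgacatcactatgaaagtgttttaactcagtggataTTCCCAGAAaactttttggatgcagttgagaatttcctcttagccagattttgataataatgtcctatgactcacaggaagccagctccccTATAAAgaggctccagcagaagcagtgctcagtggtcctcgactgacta
Madcam1: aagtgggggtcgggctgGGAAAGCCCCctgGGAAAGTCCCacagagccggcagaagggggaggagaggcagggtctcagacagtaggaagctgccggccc

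Both strands of the window from 250 bases before to 50 bases after each start were searched for 4 motifs. The interferon gamma motif GAS, written TTCNNNGAA, was found in 8.3% of all 32851 promoters, the type I interferon motif ISRE, written GAAANNGAA, in 8.56%, the NF-kB consensus in 8.46% and the TATA box, written TATAAA, in 13.6%. Icam1 held a GAS at -42 to -34 from the RefSeq start and a TATA box just after that start, at 14 to 19. GENCODE M21 starts Icam1 further downstream, at chr9:21015985, and the TATA box lies before that start. Sele held a GAS at -140 to -132, an ISRE at -208 to -200 and a TATA box at -49 to -44; its counts showed no measurable change. Madcam1, also near 0, held 2 NF-kB matches on its minus strand, at -83 to -74 and -70 to -61. Selp had no match before the start and 1 ISRE after it, at 10 to 18, and Alcam and F11r had none. Matches thus occurred both in genes that rose and in genes that stayed at a few counts. A match describes letters only, and no match says nothing of a factor.

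In liver, no adhesion gene passed the test, and Vcam1 and Icam1 came closest, both higher in every TDB library than in any vehicle library. edgeR's quasi-likelihood test called 0 of the 8 tested, beside 0.535% of 13657 genes (0.513% higher and 0.022% lower). At an unadjusted p under 0.05 it gave 3 of the 8 (Vcam1, Icam1 and Jam2), beside 1105 of all genes. With DESeq2, 2 were called (Vcam1 and Icam1), and with limma-voom none. The median log2 fold change of the 8 was 0.34, beside 0.04 over all genes.

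Vcam1 in liver held 8.84, 10.4 and 9.26 CPM in vehicle and 20.2, 27.3 and 51.0 CPM in TDB libraries. The TDB libraries are widely spread, and the highest is the third, which had the highest rho with exon length. The log2 difference was 1.84 (SE 0.38, edgeR adjusted p = 0.13). Without that library it was 1.36 (edgeR adjusted p = 0.036), and without the first TDB library 2.09 (adjusted p = 0.046), so its size and its call depend on which libraries enter.

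Icam1 in liver held 28.7, 34.7 and 37.5 CPM in vehicle and 61.7, 85.8 and 86.2 CPM in TDB libraries. The log2 difference was 1.25 (SE 0.24, edgeR adjusted p = 0.091), and 1.17 without the third TDB library (edgeR adjusted p = 0.046). Jam2 held 24.6, 25.1 and 23.6 CPM in vehicle and 27.4, 39.0 and 43.5 CPM in TDB livers. It lies higher in each TDB library, where in tumor it lay lower, with a log2 difference of 0.63 (SE 0.25, edgeR adjusted p = 0.53). Such upward separation without overlap was seen in 8.18% of all genes tested in liver and in 3 of the 8 members, and downward separation in 6.58% and in none.

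T cell markers moved with these genes in liver: the 12 markers summed to 20.5 to 25.2 CPM in vehicle and 45.5 to 54.6 CPM in TDB livers, with 1 of 11 tested higher (Cd8a) and none at 0. The 7 Kupffer cell markers, for the resident macrophages that carry VCAM-1, summed to 724 to 1098 CPM and 744 to 974 CPM, with Marco higher of 7 tested and none at 0. The 15 pan-endothelial markers summed to 364 to 478 CPM and 348 to 514 CPM, with none called (edgeR; none at an unadjusted p under 0.05) and none at 0. Over all genes tested in liver, 0.513% were called higher and 0.022% lower. The part of these cells in the liver values was not tested.

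The other members overlapped between the liver groups. Selp held 1.65, 1.37 and 1.70 CPM in vehicle and 1.11, 0.969 and 1.51 CPM in TDB livers, 57 counts in each group, a log2 difference of -0.35 (95% interval -1.17 to 0.46). Pecam1 held 34.9, 29.6 and 38.6 CPM in vehicle and 31.2, 42.5 and 46.4 CPM in TDB livers, a log2 difference of 0.26 (95% interval -0.29 to 0.82). F11r held 200.3, 204 and 185 CPM and 199.9, 174 and 155 CPM, a difference of -0.12 (95% interval -0.54 to 0.31). None of the 3 showed a direction beyond its spread. Sele had 9 counts in vehicle livers (4, 3 and 2) and 15 in TDB livers (0, 7 and 8; ratio 1.25, exact 95% interval 0.513 to 3.24), and Madcam1 had 0 in both, where 3 counts would correspond to 0.0830 CPM over the vehicle group and 0.0623 CPM over the TDB group.

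Icam2 and Alcam depended on the third liver TDB library in opposite ways. Icam2 held 19.2 and 20.8 CPM in the first and second TDB libraries and 9.50 CPM in the third, beside 12.5, 14.9 and 10.95 CPM in vehicle. Alcam held 65.4 and 70.8 CPM in the first and second and 137 CPM in the third, beside 89.1, 86.6 and 91.0 CPM in vehicle. Alcam's log2 difference was 0.08 with all libraries and -0.35 without the third. In that library Vcam1, with 8870 exonic bases, deviated from the TDB group mean by 0.74 on the log2 scale and Alcam, with 7121, by 0.67. Icam2, with 1904 bases, deviated by -0.71 and F11r, with 2663, by -0.18. The long members were thus high and the short members low in it, as across all genes. Other liver libraries had length trends too, so leaving the third out does not remove them. The part of these trends in the liver values was not tested beyond leaving libraries out.

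**Figure D2:**
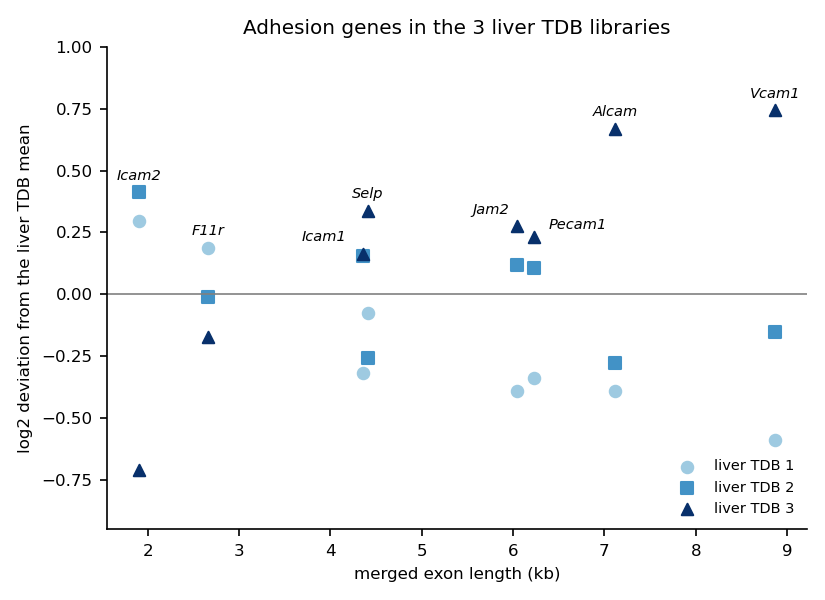
Deviation of each of the 8 tested adhesion genes from the mean of the 3 TDB livers (log2, vertical axis) against the gene's merged exon length in kilobases (horizontal axis), 1 symbol per library. In the third library (triangles) Icam2, the shortest, is lowest at -0.71, and Vcam1, the longest, is highest at 0.74.

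The antibody's effect differed between tumor and liver for 3 of the 8 genes, by the interaction term of an edgeR quasi-likelihood fit over the 12 libraries. That term called 2.49% of 16557 genes, 1.83% with a higher and 0.658% with a lower effect in tumor. For Selp, the tumor effect exceeded the liver effect by 5.11 on the log2 scale (SE 0.54, adjusted p = 0.00041), and for Icam1 by 2.51 (SE 0.32, adjusted p = 0.0012). For Jam2 the difference was -1.64 (SE 0.27, adjusted p = 0.0068). Jam2 was higher in 3 of 3 TDB livers and lower in 3 of 3 TDB tumors than in any vehicle library of the same tissue. Upward separation in liver was seen for 8.18% of genes and downward separation in tumor for 31.9%. The liver difference of Jam2 did not itself pass the test (edgeR adjusted p = 0.53). The fit treats the libraries as unpaired although liver and tumor came from the same mice by the design text.

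For Vcam1 the difference did not pass: -0.34 (95% interval -1.25 to 0.58, edgeR adjusted p = 0.87), and 0.20 without the third liver TDB library. The interval does not reach the differences found for Selp and Icam1. For Icam2 the difference was -0.41 (95% interval -1.31 to 0.49), for Alcam 0.24 (-0.75 to 1.23), for Pecam1 -0.15 (-0.83 to 0.54) and for F11r 0.20 (-0.23 to 0.64). Within each tissue, Icam1 and Vcam1 were both higher in every TDB library than in any vehicle library. Such upward separation was seen for 8.18% of genes tested in liver and 17.7% in tumor. Whether the tissue differences of Icam1 and Vcam1 differ from each other was not tested.

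**Figure D3:**
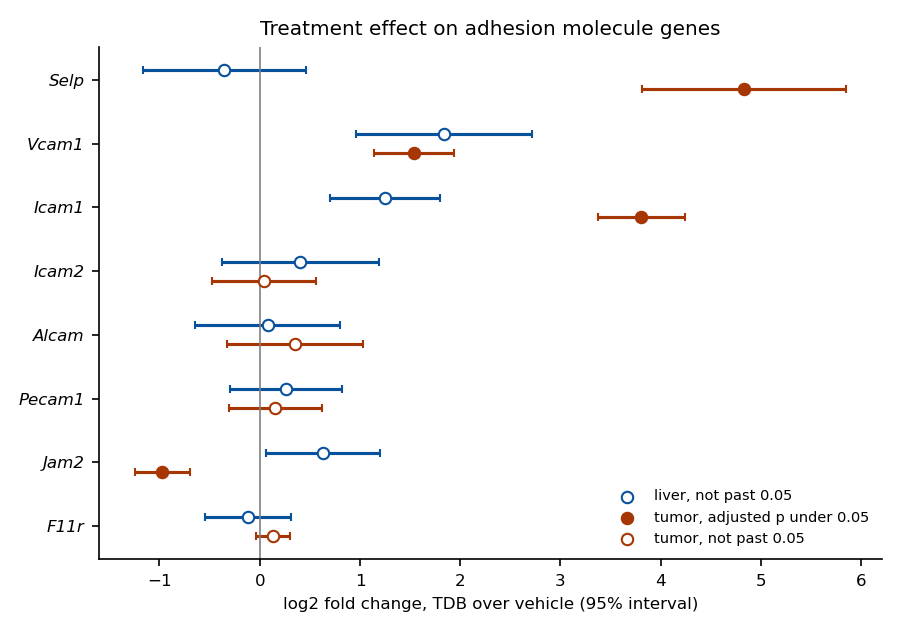
Log2 fold change of TDB over vehicle with its 95% interval for the 8 tested adhesion genes, in liver and in tumor, from the edgeR fits. Filled points passed the test (adjusted p under 0.05) and open ones did not. Selp and Icam1 are far higher in tumor (4.83 and 3.81) than in liver (-0.35 and 1.25), the intervals of Vcam1 overlap (1.54 and 1.84), and Jam2 has opposite signs (-0.97 and 0.63).

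In vehicle mice, on the TMM scale, Selp, Icam1, Icam2 and Alcam were lower in tumor than in liver and Vcam1 was higher, and Pecam1, Jam2 and F11r did not pass the test. The test called 5 of 8, beside 78.5% of 15633 genes (40.8% higher and 37.8% lower in tumor). The log2 differences of tumor from liver were -5.11 for Selp (SE 0.45), -4.86 for Alcam (SE 0.27), -3.77 for Icam1 (SE 0.25) and -2.44 for Icam2 (SE 0.22). For Vcam1 the difference was 0.75 (SE 0.21). Pecam1 differed by -0.05, Jam2 by 0.02 and F11r by -0.16. Libraries of the tissues did not overlap for Vcam1 (tumor above, beside 43.5% of genes) and for Selp, Icam1, Icam2, Alcam and F11r (tumor below, beside 38.9%). Sele, which was not tested, also lay below in scaled CPM. That rests on 9 counts in vehicle livers (4, 3 and 2) and 4 in vehicle tumors (0, 3 and 1), which overlap before scaling.

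These tissue values depend on scaling, since a few hepatocyte genes take up much of a liver library. Scaled by library size alone, an alternative chosen after seeing the data, the median log2 difference of all genes moved from 0.08 to 1.42, and the share of calls that were higher in tumor moved from 51.9% to 79.1%. Then 8 of 8 were called, beside 84.9% of all genes tested (67.1% higher and 17.7% lower): Selp, Icam1, Icam2 and Alcam stayed lower, Vcam1 stayed higher, and Pecam1 (1.28), Jam2 (1.36) and F11r (1.18) became higher in tumor. The directions of the first 5 thus held under both scalings, and those of the other 3 did not.

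With the antibody, and on the TMM scale, tumor and liver drew level for Selp and nearer for Icam1, and apart for Jam2. Of the 8, 4 were called lower in tumor and none higher, beside 67.6% of 15953 genes (34.1% higher, 33.5% lower). Selp differed by -0.02 (95% interval -0.75 to 0.72), Icam1 by -1.26 (SE 0.20), Icam2 by -2.85 (SE 0.36), Alcam by -4.62 (SE 0.39) and Jam2 by -1.62 (SE 0.22). The tissues did not overlap for Icam1, Icam2, Alcam and Jam2, all lower in tumor, beside 36.3% of genes lower and 39.4% higher. Vcam1 differed by 0.42 (95% interval -0.39 to 1.24), and by 0.88 without the third liver TDB library, which passed the test (edgeR adjusted p = 0.00079). By library size alone, where the median of all genes moved from 0.04 to 1.17, 6 of 8 were called, beside 76.9% of all genes tested (60.9% higher and 16% lower). Icam2 and Alcam remained lower, Icam1 (-0.13) and Jam2 (-0.50) no longer passed, and Selp (1.11), Vcam1 (1.52), Pecam1 (0.93) and F11r (1.19) were higher in tumor. These comparisons share libraries with those of the antibody in each tissue and are given as the members' own values.

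Between genes, levels are compared as CPM per kilobase of merged exons. F11r was the highest of the 10 in all 4 groups, at 73.8 ± 3.7 in vehicle liver, 66.3 ± 8.4 in TDB liver, 66.4 ± 1.6 in vehicle tumor and 68.7 ± 5.0 in TDB tumor (SD, n = 3). In vehicle liver Alcam followed at 12.5 ± 0.31, then Icam1 at 7.71 ± 1.03, Icam2 at 6.71 ± 1.04, Pecam1 at 5.52 ± 0.72 and Jam2 at 4.04 ± 0.13, with Vcam1 (1.07), Selp (0.356), Sele (0.0869) and Madcam1 (0) last. Icam1 and Icam2, and Icam2 and Pecam1, did not differ by more than the sum of their SDs. In TDB liver Icam1 moved to the second place at 17.9 ± 3.2, and no neighbours from there down to Vcam1 differed beyond their spread.

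In vehicle tumor Pecam1 (5.37 ± 1.36) and Jam2 (4.11 ± 0.59) came next after F11r, within their spread of each other, and Vcam1 (1.82 ± 0.43) and Icam2 (1.24 ± 0.22) after them. Icam1 (0.567 ± 0.168) and Alcam (0.431 ± 0.169) were also within their spread, and Sele, Selp and Madcam1 lay between 0.00687 and 0.0138. In TDB tumor Icam1 went to the second place at 7.49 ± 0.56, ahead of Pecam1 (5.64 ± 0.72) by more than the sum of their SDs, with Vcam1 (4.97 ± 0.48) not apart from Pecam1. Jam2 dropped to the fifth place at 1.98 ± 0.16, and Selp reached 0.267 ± 0.064. Icam1 thus passed Jam2 and Pecam1 in the tumor with treatment. Per kilobase of the longest transcript, the values of all but Sele and Madcam1 were higher, and Vcam1 (10.8) came ahead of Pecam1 (10.2) in TDB tumor.

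**Figure D4:**
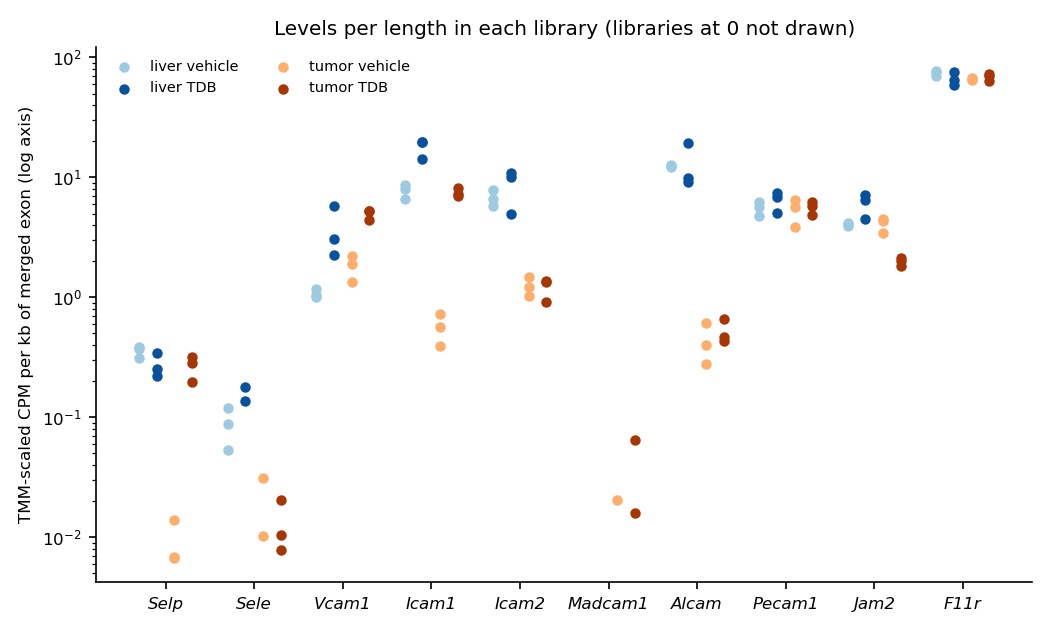
CPM per kilobase of merged exons (log axis) of the 10 adhesion genes, 1 point per library coloured by group, with libraries at 0 not drawn. F11r is highest in all 4 groups, and in tumor the mean of Icam1 goes from 0.567 in vehicle to 7.49 with TDB while that of Jam2 goes from 4.11 to 1.98.

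A ratio within each library avoids the scaling between tissues, but it carries any difference between them in the genes used as divisor. Per 100 counts of the 15 pan-endothelial markers, a list that holds no member, vehicle liver had 8.03 counts of Icam1 and vehicle tumor 1.25, while TDB liver had 19.1 and TDB tumor 21.8, and the TDB groups overlap. For Vcam1 the means were 2.29 in vehicle liver, 7.67 in TDB liver, 8.24 in vehicle tumor and 29.2 in TDB tumor. Vehicle tumor, at 7.10 to 9.21, lay in the range of TDB liver, at 5.80 to 9.94. For Selp the means were 0.373, 0.290, 0.0214 and 0.763 in the same order. With the antibody the tumor libraries, at 0.710 to 0.836, were all above the TDB livers, at 0.258 to 0.319. In CPM Selp was level between these groups, at means of 1.18 in TDB tumor and 1.20 in TDB liver.

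The junction genes read differently on this scale. Jam2 was 13.2 in vehicle and 7.92 in TDB tumor, and its ranges, 8.94 to 16.2 and 6.79 to 8.98, touched, whereas in CPM they were apart. Pecam1 was 17.1 in vehicle and 23.2 in TDB tumor, with ranges of 14.3 to 19.4 and 20.6 to 24.9 that did not overlap, whereas its CPM ranges did. In liver Pecam1 was 8.13 in vehicle and 9.78 in TDB libraries, at 8.06 to 8.19 and 8.97 to 11.3. The ratios carry the movement of the marker sum as well as that of the gene, and no test was run on them. The mean of that sum was 195 CPM in vehicle and 154 CPM in TDB tumors, and 423 CPM in vehicle and 412 CPM in TDB livers. A ratio can therefore be higher in tumor than in liver without a higher CPM of the gene. The share of all genes whose groups separate on this scale was not computed, so these separations have no background beside them.

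**Figure D5:**
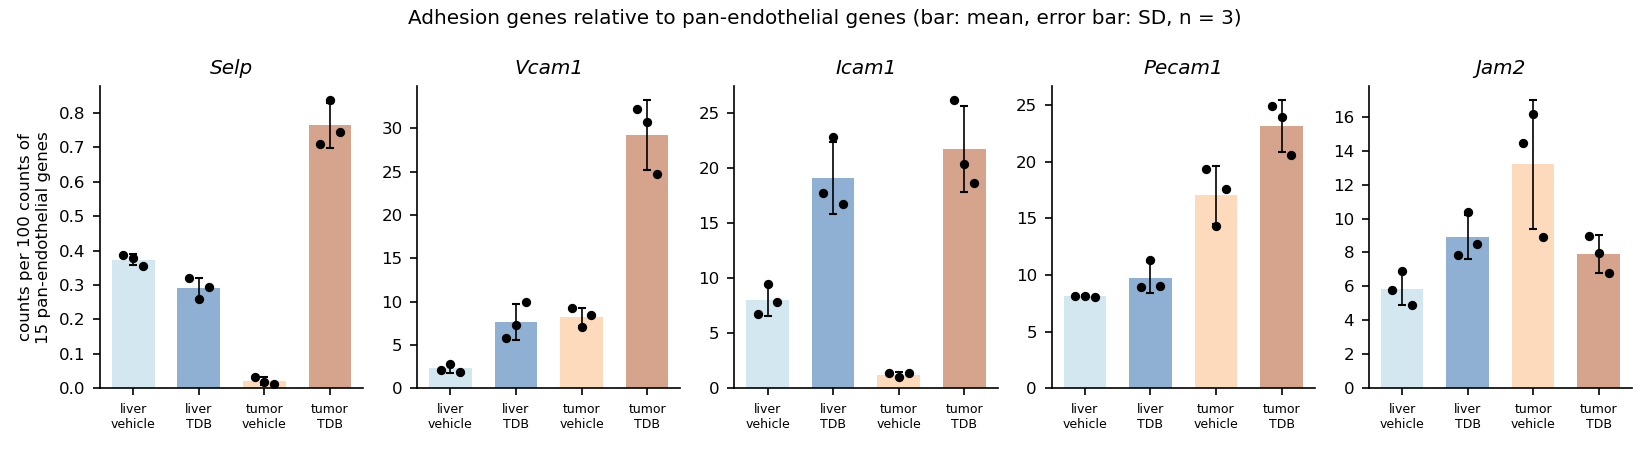
Counts of 5 adhesion genes per 100 counts of 15 pan-endothelial markers in the same library (linear axis from 0), as points for libraries, bars for means and error bars for SD of 3 libraries. In tumor Selp, Vcam1 and Icam1 are higher in all 3 TDB libraries, and the Jam2 groups touch at 8.94 and 8.98.

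The partners of these molecules on leukocytes rose in tumor. Of 12 counter-receptor genes, all tested, 11 were higher and none lower, beside 15.8% and 13.1% of all genes tested. Their median log2 fold change was 2.43, and Itgb1, shared by many cell types, did not pass. This list and those that follow were chosen with earlier results of these data known. Itga4, the alpha chain of VLA-4 that binds VCAM-1, went from 1.25 ± 0.21 to 7.13 ± 0.62 CPM (SD, n = 3), a log2 fold change of 2.60 (SE 0.18, edgeR adjusted p = 1.2e-05). Selplg, which encodes PSGL-1, the ligand of P-selectin, rose by 2.01 on the log2 scale (SE 0.16, edgeR adjusted p = 3.5e-05). In liver edgeR called 0 of the 12, beside 0.535% of all genes, and their median was 1.24. At an unadjusted p under 0.05 it gave 10 of the 12, beside 1105 of 13657 genes. The interaction called 2 of the 12 with a larger effect in tumor, beside 1.83% of all genes. Itgb7, the beta chain of the MAdCAM-1 receptor, was among the 2.

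Cytokines and receptors known to act on endothelial adhesion genes rose in tumor for 9 of 13 tested (15 listed), beside 15.8% of all genes. None was lower, beside 13.1%, and the median was 1.24. The 9 were Tnf, Lta, Ltb, Il1a, Il1b, Ifng, Tnfrsf1a, Tnfrsf1b and Il4ra. Tnf, a classic inducer of VCAM-1 and ICAM-1, stood at 0.755 ± 0.039 CPM in vehicle and 6.84 ± 1.73 CPM in TDB tumors (SD, n = 3; log2 fold change 3.26, SE 0.22, edgeR adjusted p = 1.3e-05). Ifng had no count in the vehicle tumors and 4.87 ± 0.78 CPM in the TDB tumors. In liver edgeR called 0 of 11, beside 0.535% of all genes, with 2 at an unadjusted p under 0.05, beside 1105 of 13657. The interaction called Tnf, Ltb and Il1b of 13 tested, each with the larger effect in tumor, beside 1.83% of all genes.

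Among 13 transcription factors and NF-kB feedback genes, 8 rose in tumor and none fell (median 0.59), beside 15.8% and 13.1% of all genes. Nfkb1, Nfkb2, Relb, Nfkbia and Tnfaip3 were among those that rose. Irf1, an interferon-induced factor, rose by 4.69 (SE 0.10, edgeR adjusted p = 8.5e-09) in tumor and 1.81 (SE 0.22, edgeR adjusted p = 0.018) in liver, and the interaction passed (2.84, edgeR adjusted p = 8.6e-05).

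Other genes of the crossing step did not move as a set. Of 12 further transmigration and junction genes tested in tumor, 1 rose (Cd47, by 0.79) and 1 fell (Esam, by 0.65 on the log2 scale). The median was -0.22, and 15.8% of all genes were called higher and 13.1% lower. At an unadjusted p under 0.05 edgeR gave 4 of the 12 (Jam3, Esam and Cd99l2 lower, Cd47 higher), beside 6273 of 15454 genes. Jam3 stood at -1.06 (SE 0.38, edgeR adjusted p = 0.069) and was not called. Of 7 genes of high endothelial venules only 2 had counts enough to test in tumor, and neither was called (edgeR; unadjusted p under 0.05 for 0 of 2). Of 5 sheddases, enzymes that cut adhesion molecules from the surface, Adam8 alone rose, by 1.75 (SE 0.23, edgeR adjusted p = 0.0016).

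After each library was centred on its tissue mean, the genes whose log2 levels followed a member most closely over the 12 libraries were found by Pearson's r, given as a description without a test. Nearest to Icam1 were Lgals3bp (r = 0.994), Iigp1 (0.992), an interferon-induced GTPase, and Trim30a (0.992). Near to Selp were Oas2 (0.977), an interferon-induced enzyme, and Gm5431 (0.975). Nearest to Vcam1 were Cd180 (0.970), Mpeg1 (0.969), a pore-forming protein of macrophages, and Apobec3 (0.964). Nearest to Jam2 were Rab18 (0.961), Golm1 (0.955) and Gen1 (0.953). The nearest for the members that were not called were less close: 0.915 for Icam2, 0.867 for Alcam and 0.920 for Pecam1, with F11r at 0.959. Among the members, Icam1 went with Selp at r = 0.887 and with Vcam1 at 0.828, Selp and Vcam1 at 0.553, and Jam2 opposite to Selp at -0.815. All of these values include the difference between the treatment groups, which the libraries share.

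Some members share exonic bases with genes on the other strand, and the strand setting of the counting is not given. Selp shares 438 bases with the lincRNA Gm16548, which had 168 to 326 counts in each liver library and 0 in each tumor library, and 186 with the antisense gene Gm16587, which had 3 counts in all over the tumor libraries. Selp's 57 counts per liver group may therefore include reads of Gm16548. Icam1 shares 511 bases with Gm47079, which had 11 counts over the 12 libraries, beside 8799 of Icam1.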

How the data were processed

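The deposited table holds the authors' whole-number counts per Ensembl gene, not normalized; GSNAP, limma and GRCm38 are named per the submitters' processing notes, while for counter, annotation and strand the sources used here are silent. The authors also deposited FPKM values; these follow genomic span, introns included (84.1% of 7150 genes within 1% of 1 ratio), so they served only as an alternative, on a log2 scale that understates changes of low genes. Of 52636 identifiers 52489 matched GENCODE M21. Groups came from sample titles. The 10 genes and all gene lists were chosen with earlier results of these data known. The test was edgeR's (version 4.0.16, R 4.3.3; TMM, filterByExpr with a minimum count of 10, robust quasi-likelihood test, Benjamini-Hochberg over all genes tested, threshold 0.05), by tissue on 6 libraries, by treatment on 6, and with an interaction over 12. The SE is the log2 fold change over the square root of F. From each context list the 2 higher and 2 lower called genes with the smallest adjusted p in tumor, and up to 4 called in liver, are named with values; likeness used 3 genes per member. Alternatives were RLE, upper quartile or library size scaling, other filters, DESeq2 1.42.0, limma 3.58.1 (voom, and log2(FPKM + 1) or log2(FPKM + 0.1)), omission of each library, a replicate block and 1 fit of all 12 libraries. Correlations of the deviations of same-numbered libraries were above 0.1 for some pairs but not for every pair of any 2 groups. They cannot settle pairing, and numbers were not taken to pair libraries. No 2 libraries of a group agreed within sampling noise. The edgeR script was tested on simulated data. Some genes that the naming rule selects are not reported here.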

Additional observations from a re-analysis of the deposited data

Results flagged for a closer look

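The effect of the antibody differed between the tissues for 3 adhesion genes, by the interaction term of edgeR's quasi-likelihood fit. For Selp the tumor effect minus the liver effect was 5.11 on the log2 scale, for Icam1 2.51 and for Jam2 -1.64. The Selp value rests on 4 counts over the vehicle tumors, and its liver counts may include reads of Gm16548 on the other strand. For Jam2 the signs were opposite, lower in 3 of 3 TDB tumors and higher in 3 of 3 TDB livers than in any vehicle library of the same tissue. Its liver difference did not pass the test (0.63 on the log2 scale, edgeR adjusted p = 0.53). Of all genes tested, 31.9% separated downward in tumor and 8.18% upward in liver.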

How the results depend on the processing

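The 4 calls in tumor and the 3 interaction calls held under every alternative, except that Selp could not be tested with a minimum count of 50, which left 3 and 2. The liver count of 0 became 2 without the low-count filter, with DESeq2, with the replicate block and with all 12 libraries in 1 fit (Vcam1 and Icam1 each time), and ranged from 0 to 2 as single libraries were left out. The replicate block changed no other call of a member. Numbers were not taken to pair libraries, and correlations over so few libraries cannot settle whether they do. Same-number correlations of deviations were -0.06, 0.30 and 0.46 between the liver groups, which hold different mice. Between liver and tumor they were -0.017, -0.039 and 0.078 in vehicle and 0.017, 0.015 and 0.096 with TDB. In vehicle mice the count of 5 between tissues became 8 by library size alone, with Pecam1 at 1.28 and F11r at 1.18; with TDB, Selp then stood at 1.11 and Pecam1 at 0.93.

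Signs turned only for values that did not pass the test. In liver Alcam stood at -0.010 with limma-voom, -0.0081 and -0.055 on log2(FPKM + 1) and log2(FPKM + 0.1), -0.0098 with the replicate block, and from -0.35 to 0.27 without single libraries, lowest without the third TDB library. In tumor Icam2 stood at -0.029 with upper quartile scaling, -0.0064 and -0.020 on the FPKM scales, -0.041 with all 12 libraries and -0.089 by library size alone. Without single libraries its lowest value was -0.076 and its highest 0.21, and that of Pecam1 in tumor ranged from -0.028 to 0.33. For the difference between tissues, Vcam1 stood at 0.072 on log2(FPKM + 1). With single libraries left out it ranged from -0.59 to 0.20, Pecam1 from -0.34 to 0.051 and Alcam from -0.0058 to 0.73. In vehicle mice, Pecam1 stood at 0.077 with upper quartile scaling and 0.036 without the filter, and from -0.20 to 0.14 with single libraries left out; Jam2 stood at -0.023 with a minimum count of 50 and from -0.061 to 0.14. With TDB, Selp stood at 0.13 with upper quartile scaling, 0.048 without the filter, 0.0015 and 0.012 on the FPKM scales, and from -0.15 to 0.18 with single libraries left out, and F11r from -0.035 to 0.13.

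Counts over all genes moved more. In liver the 73 calls became 352 with DESeq2, 350 with the block, 323 with all 12 libraries, 145 without the filter, 26 and 49 on the FPKM scales and 14 to 163 without single libraries. In tumor the 4456 became 1695 with all 12 libraries and at the lowest 2942 without a single library, and the share of calls that were higher moved from 54.7% to 41% with upper quartile scaling and 31.7% by library size. For the difference between tissues the 412 became 897 with DESeq2, 1066 and 777 on the FPKM scales, 258 with the block and 241 to 696 without single libraries, and the share of calls with the larger effect in tumor moved from 73.5% to 58.4% by library size. By library size alone the median log2 difference of all genes moved from 0.04 to 0.15 in liver, from -0.02 to -0.15 in tumor and from -0.12 to -0.31 for the difference between tissues. Depth limited Sele, Madcam1 and, in vehicle tumor, Selp. The causes of these changes were not tested.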
